A study of Homo sapiens with 6 samples.

Results

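SLC2A3 and ALDOC are genes of glucose use that were paired because their signals lie on opposite sides when endoderm is set against human embryonic stem cells. Every region of the deposited table that carries either name was used, which gave 2 of 14686 regions, 1 per gene. Both passed the filter on low values. Because the genes were picked for their endoderm against stem cell difference, that difference is described below without a test, and tests are given for the phase comparisons and for the other genes of the pathway.

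SLC2A3 encodes GLUT3, a high-affinity transporter that lets glucose cross the plasma membrane and is best known from neurons. ALDOC encodes aldolase C, the brain-type form of the enzyme that splits fructose bisphosphate into triose phosphates midway through glycolysis. Glycolysis turns glucose into pyruvate in a chain of cytosolic steps, and pluripotent stem cells are known to rely on it heavily. Many genes of the chain, together with glucose transporters, are known targets of the hypoxia-inducible factors.

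All libraries come from H9 at passage 51, a widely used line of human embryonic stem cells (hESC). The endoderm group has 3 libraries, made after 6 days with activin A at 100 ng/ml in medium whose serum content was 0%, then 0.2% on the second day and 2% afterwards, and they are labelled G1 (0 h), G1/S (3 h) and S (6 h). The hESC group also has 3 libraries, from cells kept on matrigel in medium conditioned by mouse embryonic fibroblasts, labelled G1 (0 h), G1/S (2 h) and S (3 h). Each library reads the 3' ends of polyadenylated RNA, and each combination of cell type and phase has 1 library. Medium and serum differ along with the cell type, so their part in any endoderm against hESC difference cannot be told apart from it. No source used here gives the share of cells that had become endoderm.

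The libraries hold 2502792 reads (endoderm S) to 6203079 reads (hESC S). The unit is signal, which is reads divided by a size factor of the library. Of the endoderm markers, 10 of the 10 measured were higher in endoderm (limma adjusted p under 0.05), and their summed signal was 9551 to 23254 in endoderm and 540.5 to 696.0 in hESC. Pluripotency markers summed to 1747 to 2016 in endoderm and 3297 to 4527 in hESC, with 3 of 10 lower and 1 higher. The lower sum came mainly from SOX2 (mean 557 in endoderm, 1615 in hESC) and UTF1 (182 and 1182). POU5F1 differed by -0.01 on the log2 scale and the median of the 10 genes was 0.20, so the set did not fall as a group. NANOG, a defining marker, was not analysed here. The phase names are those of the labels. The 16 S-phase genes, which code for replication factors and their regulators, summed, in the order G1, G1/S, S, to 6144, 7877 and 5854 in endoderm, against 8054, 8200 and 6405 in hESC. None of the 16 was called in a phase comparison, and their median log2 difference was -0.32 for S minus G1 and -0.40 for G1/S minus G1. The libraries labelled S were thus lower than those labelled G1 in both sum and median. For G1/S the sum was higher than in G1 in both cell types while the median was lower, so these measures differ.

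SLC2A3 has a near-identical neighbour gene, SLC2A14, which bears on what its region can count. In GENCODE release 29 (GRCh38) both lie on the minus strand of chromosome 12, SLC2A3 at chr12:7919230-7936275 and SLC2A14 at chr12:7812512-7891148. ALDOC lies on the minus strand of chromosome 17 at chr17:28573115-28577264. The last 60 coding bases, stop codon included, are shown as an example of how alike the coding sequences are, with capitals where a gene differs from its partner.
SLC2A3: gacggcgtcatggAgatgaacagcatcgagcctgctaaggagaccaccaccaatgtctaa
SLC2A14: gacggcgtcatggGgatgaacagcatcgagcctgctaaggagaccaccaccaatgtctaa
ALDOC: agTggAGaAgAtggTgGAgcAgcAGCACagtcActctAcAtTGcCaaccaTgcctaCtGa
ALDOA: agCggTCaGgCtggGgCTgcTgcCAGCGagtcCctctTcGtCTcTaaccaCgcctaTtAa

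Over those 60 bases SLC2A3 and SLC2A14 differ at 1 position and ALDOC and ALDOA at 23. Both transcripts are well longer than their coding sequences of 1491 bases (SLC2A3) and 1095 bases (ALDOC), so the coding ends do not show what reads from the 3' end can tell apart. Over the aligned coding sequence SLC2A3 is 96.7% identical to SLC2A14 and 67.2% identical to SLC2A1, and ALDOC is 75.3% identical to ALDOA. Of the 3880 words of 36 bases in the SLC2A3 transcript, 32.6% also occur in SLC2A14 and 36.2% in some other gene, against 0.462% of 1947 words for ALDOC. The sources used here do not say how reads matching several places were treated, so the SLC2A3 signal may be shared with SLC2A14, while the ALDOC signal has little room for such sharing. SLC2A14 itself was not analysed here.

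The SLC2A3 region spans 212 bases at chr12:7975145-7975356 and the ALDOC region 250 bases at chr17:23924294-23924543, both on the minus strand and both in the coordinates of the deposited table (the submitters' notes name hg18 and NCBI36). The strand was read from the order of the 2 coordinates, which fits the annotated strand for 99.7% of 8834 named regions. Whether either region lies in the last exon of its gene was not determined, since no annotation of that build was used. An unnamed region on the opposite strand, NOVEL_1420 at chr12:7964609-7964707, lies 10438 bases from the SLC2A3 region. In phase order it had 74, 7 and 19 reads in the endoderm libraries and 2, 0 and 2 reads in the hESC libraries. It is the only other region within 30000 bases of SLC2A3 and is described after its values were seen.

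SLC2A3 had a signal of 2288 in endoderm G1 (3314 reads), 1043 in endoderm G1/S (627 reads) and 1965 in endoderm S (1148 reads). The hESC libraries had 212 (G1, 280 reads), 178 (G1/S, 171 reads) and 213 (S, 360 reads). Each endoderm library stands above each hESC library, with no overlap. Its mean was 1765 ± 646 in endoderm and 201 ± 19.8 in hESC (SD, n = 3 libraries each, which differ in phase), a ratio of 8.79. On the log2(signal + 1) scale, endoderm minus hESC was 3.06, and 243 of the 14657 regions kept had a larger positive difference.

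The ratio of endoderm to hESC was largest in G1 and smallest in G1/S. The G1 pair of libraries gave 10.8, the G1/S pair 5.86 and the S pair 9.24 (3.43, 2.54 and 3.20 as log2 differences). The spread therefore comes mostly from the endoderm side, where the G1/S library is the low one. Ranked among all regions of its library, SLC2A3 was 271st in endoderm G1, 1012th in endoderm G1/S and 390th in endoderm S, against 2945th, 3315th and 2989th in the hESC libraries of the same phases. In these bulk libraries a change in the number of cells that make a transcript and a change in the amount per cell cannot be told apart.

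ALDOC had a signal of 85.6 in endoderm G1 (124 reads), 103 in endoderm G1/S (62 reads) and 77.0 in endoderm S (45 reads). The hESC libraries had 346 (G1, 457 reads), 301 (G1/S, 289 reads) and 621 (S, 1052 reads). Here each endoderm library stands below each hESC library. The mean was 88.6 ± 13.3 in endoderm and 423 ± 174 in hESC (SD, n = 3 libraries each), so hESC was 4.77 times endoderm. On the log2(signal + 1) scale, endoderm minus hESC was -2.18, and 908 regions had a larger negative difference.

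For ALDOC the gap was widest in S. The hESC signal was 4.04 times the endoderm signal in G1, 2.92 times in G1/S and 8.07 times in S. Here the spread comes mostly from the hESC side, where the S library is the high one.

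**Figure D1:**
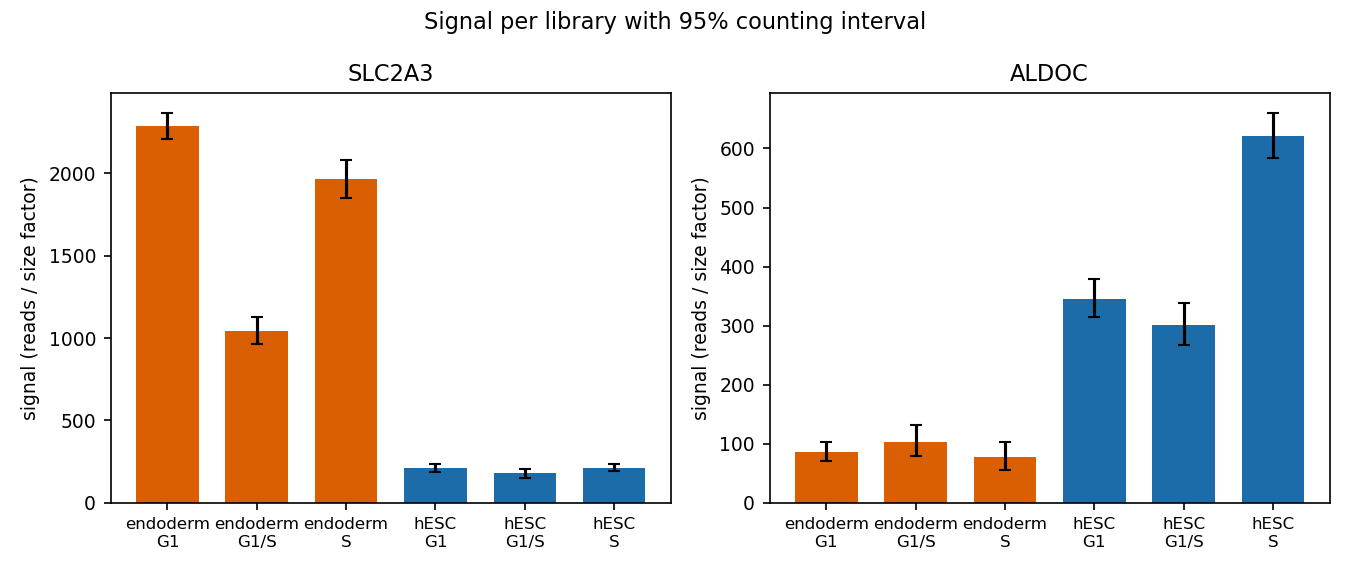
Signal (reads divided by the size factor of the library) of SLC2A3 and ALDOC in the 3 endoderm and 3 hESC libraries. Bars are single libraries and whiskers the 95% Poisson interval of the read count; SLC2A3 lies between 1043 and 2288 in endoderm and between 178 and 213 in hESC, and ALDOC between 77.0 and 103 in endoderm and between 301 and 621 in hESC.

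Counting error is small beside these gaps. The exact 95% Poisson intervals, which cover counting error only, were 2211 to 2367 for SLC2A3 in endoderm G1, 963 to 1128 in endoderm G1/S and 1853 to 2082 in endoderm S, so these 3 levels are separate in counting terms. In hESC the SLC2A3 intervals were 188 to 238 in G1, 152 to 207 in G1/S and 191 to 236 in S, which overlap. For ALDOC the hESC S interval of 584 to 660 lies apart from that of hESC G1, 315 to 379, and of hESC G1/S, 267 to 338, which overlap each other. The endoderm intervals of ALDOC, 71.2 to 102 in G1, 79.1 to 132 in G1/S and 56.2 to 103 in S, overlap as well.

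The close relatives of each gene give the family background. SLC2A1 encodes GLUT1, the widely expressed glucose transporter, and its region lies at chr1:43164124-43164815 in the deposited coordinates. In phase order its signal was 1743, 1036 and 1520 in endoderm, against 1185, 1629 and 2645 in hESC. The groups overlap, and the log2 difference of -0.30 ± 0.31 (SE) did not pass (limma adjusted p = 0.514). ALDOA encodes aldolase A, the form found in muscle and most other tissues. In phase order its signal was 4993, 12529 and 11496 in endoderm, against 8469, 14214 and 6084 in hESC. These groups overlap too, and they differ by -0.01 ± 0.31 (SE) on the log2 scale (limma adjusted p = 0.988).

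Read shares put each gene beside its relatives. The libraries read 3' ends of polyadenylated RNA, so reads were not divided by length. Whether the SLC2A3 and ALDOC regions lie at the 3' ends of their genes was not determined. How well each region is captured also enters a share. SLC2A3 took 48.2%, 32.8% and 45.1% of the reads of the SLC2A family (6 names, 7 regions) in the endoderm libraries, in phase order, against 8.10%, 5.54% and 5.11% in hESC. ALDOC took 1.69%, 0.817% and 0.666% of the reads of ALDOA and ALDOC together in endoderm, against 3.92%, 2.07% and 9.27% in hESC. The highest endoderm share of ALDOC, with a 95% Wilson interval of 1.42% to 2.01%, overlaps in its interval with the lowest hESC share, at 1.85% to 2.32%, so on this measure the groups are not cleanly apart. ALDOA carried most aldolase reads in all 6 libraries.

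**Figure D2:**
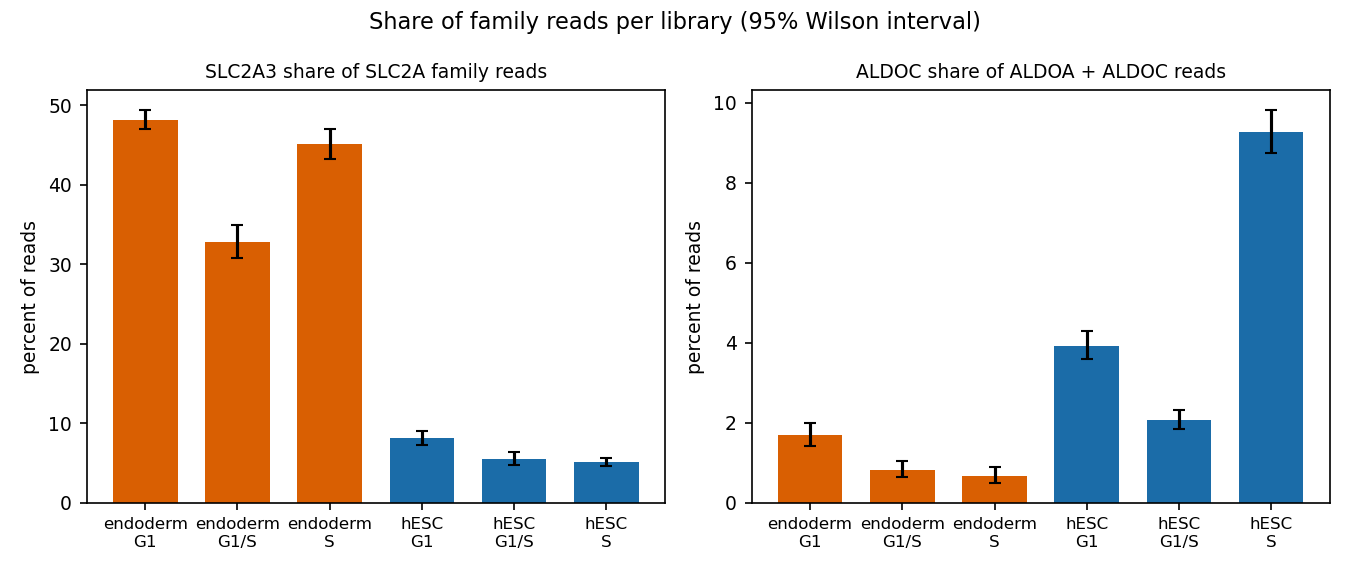
Percent of SLC2A family reads that belong to SLC2A3, and percent of ALDOA and ALDOC reads that belong to ALDOC, in the 3 endoderm and 3 hESC libraries. Bars are single libraries with 95% Wilson intervals; SLC2A3 takes 32.8% to 48.2% in endoderm and 5.11% to 8.10% in hESC, and ALDOC 0.666% to 1.69% in endoderm and 2.07% to 9.27% in hESC.

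The phase comparisons ask whether either transcript differs between the libraries labelled G1, G1/S and S, a question the choice of the genes did not use. They were fitted with limma over all 14657 regions with terms for cell type and phase, with 1 phase effect shared by both types. Neither gene was called. SLC2A3 had an S minus G1 log2 difference of -0.11 ± 0.33 (SE), with a 95% interval of -0.88 to 0.66 (limma adjusted p = 0.993). Its G1/S minus G1 difference was -0.69 ± 0.33, with an interval of -1.46 to 0.08 (limma adjusted p = 0.383). ALDOC had an S minus G1 difference of 0.35 ± 0.43, with an interval of -0.65 to 1.34 (limma adjusted p = 0.982), and a G1/S minus G1 difference of 0.03 ± 0.43, with an interval of -0.96 to 1.03 (limma adjusted p = 0.974). These intervals leave room for differences of about the size seen between single libraries.

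No region at all was called in either phase comparison by limma, so the background is 0% in both, with 497 regions at an unadjusted p under 0.05 for S minus G1 and 2002 for G1/S minus G1. On the reads, edgeR called 0 and 0 regions and DESeq2 1 and 89. Neither of those tools called SLC2A3 or ALDOC.

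Within each cell type a phase has 1 library, so the following compares libraries and not phases. SLC2A3 in endoderm stood at 0.456 times its G1 signal in G1/S and 0.859 times in S. In hESC it was at 0.840 times its G1 signal in G1/S and close to that signal in S (0.01 on the log2 scale). ALDOC in endoderm was at 1.20 times its G1 signal in G1/S and 0.900 times in S, and in hESC at 0.870 times in G1/S and 1.80 times in S. SLC2A3 was therefore lowest in the G1/S library of both cell types, though its counting intervals overlap in hESC, whereas the ALDOC excursion is in hESC S. The median log2(signal + 1) over the regions kept was also lower in G1/S than in G1. It was 5.10 against 5.25 in hESC and 5.10 against 5.38 in endoderm. After each library was centred on its median, G1/S minus G1 for SLC2A3 was -0.47 in place of -0.69.

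The rest of the pathway was described from 8 lists that hold 127 genes besides SLC2A3 and ALDOC, of which 80 had a region that was tested. Of these, 8 rose and 8 fell in endoderm (limma adjusted p under 0.05). That is 20.0% of the 80 genes, against 14.5% of all 14657 regions, where 6.90% rose and 7.60% fell. The median log2 difference was -0.12 over the 80 genes and 0.02 over all regions. The count of pathway genes was 0 without hESC G1/S, 4 without endoderm G1/S and 0 when the pair was left out. The count over all regions dropped in the same fits, to 419, 571 and 415 of 14657, so the drop is not particular to the pathway genes. Leaving out hESC S gave 7 and endoderm S 8, while dropping the phase block gave 8 and dropping the intensity trend 5.

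Among 5 glucose transporters besides SLC2A3, none rose and 1 fell. That gene is SLC2A11, a member of the family that is known to carry fructose as well as glucose, at 56.4 ± 9.44 in endoderm and 124 ± 14.9 in hESC (SD, n = 3 libraries each). Its log2 difference was -1.14 ± 0.31 SE (limma adjusted p = 0.0495), and none of the 6 leave-one-out fits, each lacking a different library, kept the call. With phase in the fit, leaving out either library of a phase pair gives the same endoderm minus hESC difference. The 6 fits are therefore not 6 separate checks, here and for the genes below. SLC2A6, SLC2A8 and SLC2A12 did not pass, with log2 differences of -0.53, -0.48 and 0.01.

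Among 16 glycolytic enzymes besides ALDOC, 1 rose and 3 fell. PKM, named PKM2 in the table, encodes the pyruvate kinase of most tissues and catalyses the last step of the chain. In phase order its signal was 12196, 21396 and 15984 in endoderm, against 5597, 12283 and 5867 in hESC. Its log2 difference was 1.12 ± 0.20 SE (limma adjusted p = 0.0160, kept in 2 of 6 leave-one-out fits). Within each phase the endoderm library was the higher one, although hESC G1/S slightly exceeded endoderm G1.

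The genes that fell were HK1, PGAM2 and PKLR. HK1 encodes hexokinase 1, which traps glucose in the cell at the first step, and stood at 385, 216 and 371 in endoderm and 691, 420 and 1494 in hESC (-1.27 ± 0.30 SE, limma adjusted p = 0.0351, kept in 2 of 6 fits). PGAM2, the muscle form of phosphoglycerate mutase, was at 12.4 ± 5.18 in endoderm and 79.8 ± 14.4 in hESC (-2.64, limma adjusted p = 0.00798, kept in 5 of 6). HK2 and PGAM1, listed for the same steps as HK1 and PGAM2, were not analysed here, so these falls do not describe the whole step. PKLR, the pyruvate kinase of liver and red cells, had 4, 4 and 2 reads in endoderm and 26, 58 and 56 in hESC. Its log2 difference of -2.80 (limma adjusted p = 0.0162, kept in 3 of 6) is shaped by the added 1.

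The most abundant gene of each remaining step did not pass. GPI, which converts glucose phosphate to fructose phosphate, had a log2 difference of -0.81 ± 0.24 (SE), and PFKL, the liver-type phosphofructokinase, 0.45 ± 0.21. TPI1, which interconverts the trioses that aldolase makes, was at 0.17 ± 0.22, GAPDH, the dehydrogenase after it, at -0.96 ± 0.31 and PGK1, the first ATP-making step, at 0.54 ± 0.29. ENO1, the main enolase, had -0.92 ± 0.47 (limma adjusted p = 0.213), with 7077, 7575 and 8271 in endoderm, in phase order, against 23562, 4409 and 28679 in hESC. The hESC G1/S library is far below the other hESC libraries for ENO1, and below every endoderm library.

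Summed over the 16 enzyme genes, the signal was 37461 to 59304 in endoderm and 49626 to 63106 in hESC, so the groups overlap. The 3 glycolysis regulators had no call. PFKFB3 and PFKFB4, which encode enzymes that set the level of an activator of phosphofructokinase, differed by 0.93 and -1.41 on the log2 scale, and TIGAR, a phosphatase that lowers that activator, by -0.78.

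The next genes feed from or into glycolysis. The share called was 5.56% for pyruvate and lactate and 33.3% for gluconeogenesis and glycogen, against 14.5% of all regions. Among 18 pyruvate and lactate genes 1 fell, LDHD, a mitochondrial D-lactate dehydrogenase, with 4, 3 and 0 reads in endoderm and 52, 64 and 61 in hESC (log2 difference -4.04, limma adjusted p = 0.00889, kept in 5 of 6 fits). The lactate exporters SLC16A1 and SLC16A3 and the dehydrogenase gene LDHB did not pass, at 0.55, 0.08 and -0.63. Among 9 gluconeogenesis and glycogen genes, PCK2, the mitochondrial enzyme that makes phosphoenolpyruvate, rose to 919 ± 132 in endoderm, against 465 ± 138 in hESC (limma adjusted p = 0.0498). PGM1, which links glycogen to glucose phosphate, rose to 60.2 ± 27.3, against 22.0 ± 10.9 in hESC (limma adjusted p = 0.0421), and PYGM, the muscle glycogen phosphorylase, fell to 12.4 ± 2.34, against 113 ± 37.7 (limma adjusted p = 0.00481). Of the 6 leave-one-out fits, 0 kept the PCK2 call, 0 the PGM1 call and 5 the PYGM call.

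In the 5 genes of fructose and triose metabolism 1 fell, KHK, the ketohexokinase, to 38.7 ± 11.7 in endoderm, against 93.0 ± 24.7 in hESC (limma adjusted p = 0.0439, kept in 0 of 6). In the 5 of the pentose phosphate path 1 fell, TKT, the transketolase, to 3335 ± 366, against 5967 ± 1230 in hESC (limma adjusted p = 0.0438, kept in 2 of 6).

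The hypoxia response list, which had 19 tested genes, had 5 that rose and none that fell. That is 26.3% of the list, against 6.90% of all regions that rose and 14.5% that were called either way, and the median log2 difference was 0.35. DDIT4, an inhibitor of mTOR signalling induced by stress, rose most in it, with 1038, 3968 and 1912 in endoderm, in phase order, against 381, 736 and 486 in hESC (1.95 ± 0.26 SE, limma adjusted p = 0.00615, kept in 4 of 6 fits). The peptide hormone gene ADM was at 425 ± 57.8 in endoderm and 156 ± 24.2 in hESC (1.44, limma adjusted p = 0.0152, kept in 4), and STC2, a secreted stanniocalcin, at 6389 ± 2126 and 2109 ± 328 (1.55, limma adjusted p = 0.00884, kept in 4). The transcriptional repressor BHLHE40 had 1.84 (limma adjusted p = 0.0357) and NDRG1, listed as Cap43, 1.04 (limma adjusted p = 0.0344), each kept in 2 fits. All 5 are also known to respond to other stresses.

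Regulators of the hypoxia response did not pass, with log2 differences of 0.35 for HIF1A, 0.11 for EPAS1, 0.33 for the oxygen-sensing hydroxylase EGLN2 and -0.03 for VHL. Among the targets, VEGFA had 1.06 (limma adjusted p = 0.0943) and P4HA2 0.93, while ANGPTL4 had -0.99 (limma adjusted p = 0.110), MXI1 -0.88 and CA12 -0.54. HIF3A and ARNT, subunits of the factors, had -0.70 and -0.16, and the hydroxylase HIF1AN -0.04. The uncalled members thus lie on both sides of 0. Oxygen was not recorded as a variable of the study.

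**Figure D3:**
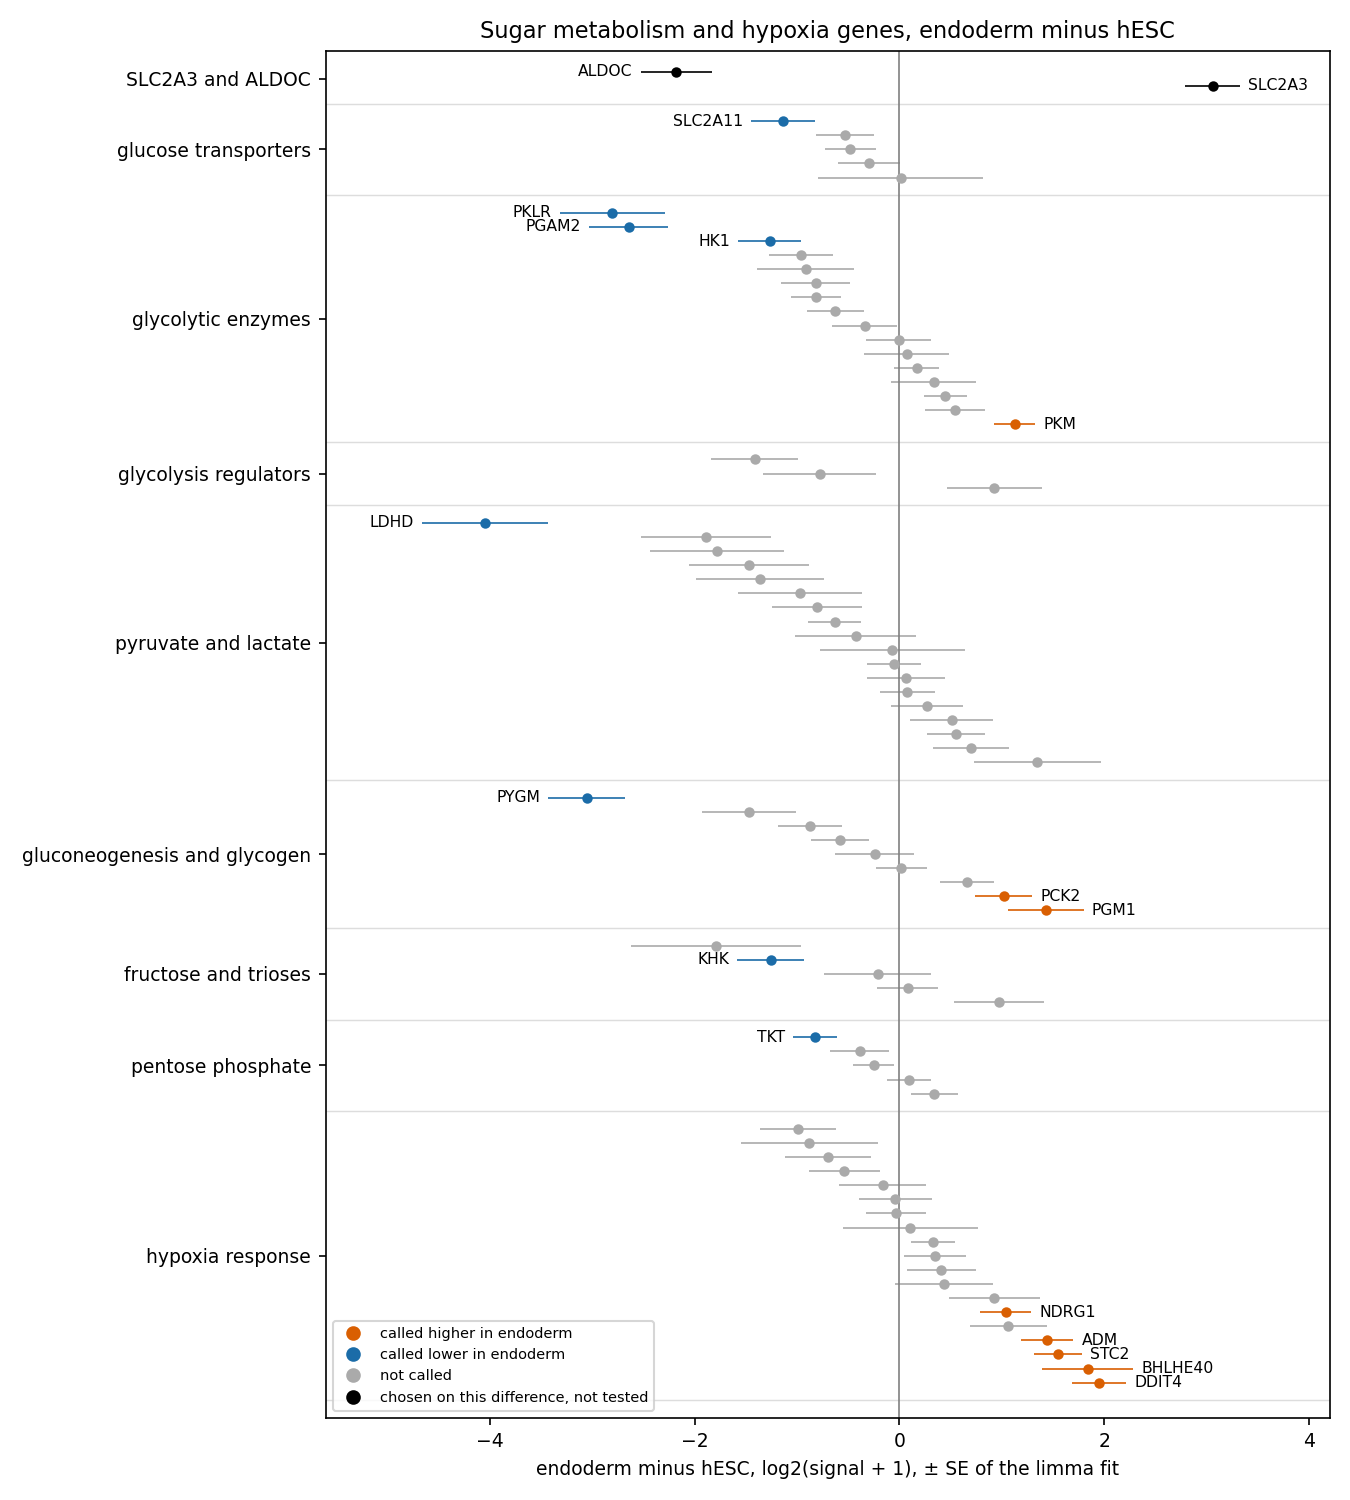
Endoderm minus hESC on the log2(signal + 1) scale for SLC2A3, ALDOC and the 80 tested genes of 8 lists, 1 row per gene, with the SE of the limma fit as whiskers. Orange genes rose and blue genes fell at an adjusted p under 0.05, grey genes did not pass, and SLC2A3 (3.06) and ALDOC (-2.18), in black, were chosen on this difference and carry no test; LDHD, PYGM, PKLR and PGAM2 lie farther below 0 than ALDOC, and no gene of the lists lies above SLC2A3.

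Markers of other cells are given beside these values because aldolase C and GLUT3 are both abundant in neural tissue. Of 12 neural markers 5 were measured, and PAX6 and OTX2 rose while NES, TUBB3 and SLC1A3 did not pass. OTX2 is also known from early endoderm. The 5 summed to 7555 to 14617 in endoderm and 7840 to 11282 in hESC. SOX1, ZIC1, NEUROD1, DCX, GFAP, S100B and MAP2 were not analysed here. Of 8 fibroblast markers 4 were measured and COL1A1, THY1 and S100A4 fell, as did the ALDOC signal, with sums of 2060 to 3692 in endoderm and 6011 to 10328 in hESC. THY1 is also a known surface protein of hESCs, and the defining markers COL3A1, LUM, DCN and POSTN were not analysed here. All 5 extraembryonic markers measured were called, against 14.5% of all regions. Of the 6 leave-one-out fits, 6 kept the call for HNF4A, 5 for KRT7, 4 for GATA3, 2 for TFAP2C and 1 for TTR. GATA3 (2.62) and HNF4A (3.00) rose and KRT7 (-2.42), TFAP2C (-2.12) and TTR, which had no reads in endoderm, fell, with sums of 289 to 532 in endoderm and 250 to 355 in hESC. Of 3 mesoderm markers TWIST1 rose (2.62) and TBX6 and KDR did not pass, with sums of 117 to 293 in endoderm and 74.4 to 89.5 in hESC. The part of any of these sets in the SLC2A3 and ALDOC values was not tested.

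The promoter of ALDOC is shown because hypoxia-inducible factors bind short ACGTG or GCGTG cores. The 250 bases before its start site, from RefSeq (GRCh38.p14, chr17:28576896-28577145, minus strand), are printed with both cores, on either strand, in capitals.
ALDOC promoter: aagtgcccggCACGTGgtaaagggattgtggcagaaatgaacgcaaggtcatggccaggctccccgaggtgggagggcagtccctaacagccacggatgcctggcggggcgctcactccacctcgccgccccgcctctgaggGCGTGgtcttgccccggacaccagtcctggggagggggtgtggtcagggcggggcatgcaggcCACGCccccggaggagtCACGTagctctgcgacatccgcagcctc

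The window holds ACGTG at 3 places, 2 of which overlap as the opposite strands of CACGTG, and GCGTG at 2. Of 35116 promoter windows of the same length, 18.5% hold ACGTG, 32.2% hold GCGTG and 43.2% hold either. At least 2 matches are found in 7.52% for ACGTG, 10.2% for GCGTG and 19.4% for either. They describe letters and do not show that a factor binds there. SLC2A3 was not matched in the promoter table.

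Genes with the most similar course over the 6 libraries were found among 9579 other named genes by the root mean square difference between profiles of log2(signal + 1), each centred on its own mean. For SLC2A3 these were MGC33894 (0.17), HERPUD1 (0.26), NUDT4 (0.26), AMOTL2 (0.28) and MAN1A2 (0.32), against a median of 1.63 over all genes compared. AMOTL2, which encodes a junction-associated member of the angiomotin family, had 557, 283 and 644 in endoderm, in phase order, against 56.7, 71.8 and 82.7 in hESC. HERPUD1, an endoplasmic reticulum stress gene, NUDT4 and MAN1A2 averaged 25.2, 23.2 and 45.9 in endoderm and 1.89, 2.34 and 3.53 in hESC, so their profiles rest on few reads there.

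For ALDOC the closest were IGSF1 (0.08), ETV7 (0.18), APOBEC3B (0.20), UCN2 (0.23) and C1orf183 (0.24), against a median of 1.27. IGSF1, an immunoglobulin superfamily membrane protein gene, had 21.4, 25.0 and 18.8 in endoderm and 80.2, 65.6 and 152 in hESC, with the hESC S library highest as for ALDOC. UCN2, the gene of the peptide urocortin 2, had nearly the ALDOC level itself, at 67.0, 108 and 103 in endoderm and 325, 278 and 616 in hESC. APOBEC3B, a cytidine deaminase gene, averaged 5.45 in endoderm and 29.1 in hESC. All 10 profiles share their libraries with the gene they are compared to and were picked for likeness over them. A shared high or low library, such as hESC S for ALDOC, follows from that choice, and the likeness says nothing of function.

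**Figure D4:**
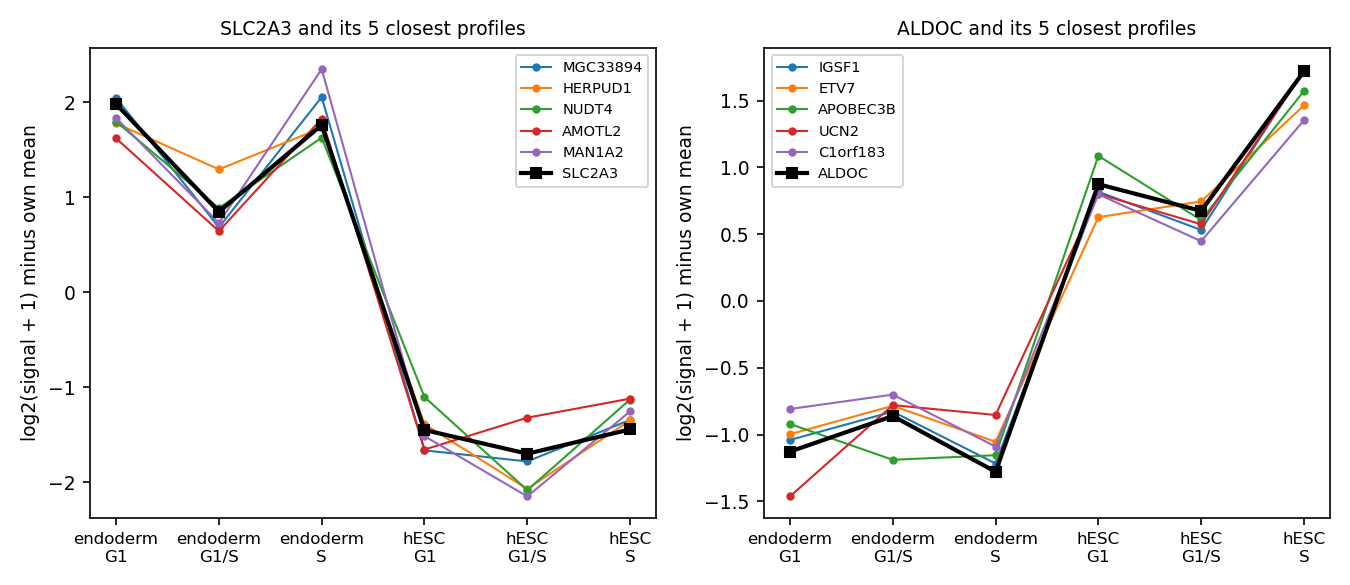
log2(signal + 1) minus the gene's own mean over the 6 libraries for SLC2A3 and ALDOC (black squares) and the 5 genes closest to each (coloured), with endoderm libraries on the left and hESC libraries on the right. The SLC2A3 panel dips at G1/S within endoderm, and the ALDOC panel peaks at hESC S.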

How the data were processed

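The authors deposited 1 table of signal per library for 14686 regions, of which 10368 carry a gene name. Per the submitters' processing notes, the tools were Bowtie 0.12.7, CASAVA 1.5 and DESeq 1.5.24, given without roles, and the builds hg18 and NCBI36. All deposited signal values (100% within 1e-06) were whole reads divided by 1 constant per library, equal to a recomputed median-of-ratios size factor. The value of 1 read lies between 0.591 and 1.71, and 0 reads allow up to 1.77 to 5.13 (3 reads).

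Regions with log2(signal + 1) of at least 1 in at least 3 libraries were kept (14657). limma 3.58.1 in R 4.3.3 (eBayes with intensity trend, 2 residual degrees of freedom, Benjamini-Hochberg adjustment over all regions, threshold 0.05) fitted cell type and phase, so that phase pairs the libraries. With 1 library per cell type and phase, p-values rest on how far the phase course differs between the types, mixed with noise between libraries. The fit cannot separate these. The labels name no separate cultures, so that noise may be technical. edgeR 4.0.16 and DESeq2 1.42.0 on the reads were alternatives. Scripts were tested on simulated data.

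The genes and lists were chosen with earlier results of these data known. Named genes are both members, list genes past the threshold, SLC2A1, SLC2A14, ALDOA, the most abundant gene of each glycolytic step and the 5 closest profiles of each member, while uncalled genes given as context were chosen after their values were seen. A gene with several regions is represented by the highest mean. Current or older symbols were matched by name.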

Additional observations from a re-analysis of the deposited data

Results flagged for a closer look

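The difference between the S and G1 libraries had opposite signs in the cell types for ALDOC, at -0.15 in endoderm and 0.84 in hESC on the log2(signal + 1) scale. For SLC2A3 it was -0.22 in endoderm and 0.01 in hESC, where the value is close to 0 and its sign carries no direction. The difference between the G1/S and G1 libraries of ALDOC was 0.27 in endoderm and -0.20 in hESC. Each rests on 1 library per phase, so these differences between the cell types were not tested. The counting intervals of the libraries compared are separate for SLC2A3 in endoderm S and G1 and for ALDOC in hESC S and G1, and overlap in the other 4 pairs.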

How the results depend on the processing

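Under 17 alternatives the endoderm minus hESC log2 difference lay within 2.87 to 3.31 for SLC2A3 and -2.50 to -1.77 for ALDOC. Both genes were chosen for this difference and their groups do not overlap, so the kept sign is no test of it. No alternative called either gene in a phase comparison. With 1 library left out, S minus G1 lay between -0.38 and 0.17 for SLC2A3 and between -0.27 and 0.96 for ALDOC, and G1/S minus G1 between -1.08 (without hESC G1/S) and -0.31 (without endoderm G1/S) for SLC2A3 and between -0.45 and 0.51 for ALDOC. edgeR gave -0.030 for G1/S minus G1 of ALDOC. SLC2A3 had a negative G1/S minus G1 difference in all 15 alternatives. Its G1/S library was below its G1 library in both cell types, so no left-out library could change that sign. The main fit did not call this difference and its interval ran from -1.46 to 0.08, so that sign is not settled. Nor are the other phase signs, and the cause was not tested.

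Regions called for endoderm minus hESC number 2125, between 419 and 2344 with 1 library left out and 415 without both G1/S libraries. Pathway genes called number 16, between 0 and 15 with 1 library left out, 0 without both G1/S libraries, 5 without the intensity trend and 8 with no replicate block (no phase term). Fewer samples or another spread estimate enter these fits. Depth limits ALDOC most in endoderm S, where it has 45 reads.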

Other observations

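Of the 80 tested pathway genes, 8 had their highest signal of all 6 libraries in hESC S: SLC2A1, SLC2A12, HK1, PFKP, ENO1, ENO2, LDHA and HIF1AN. The maxima of LDHA and SLC2A12 rest on few reads, 36 and 64 in hESC S. For comparison, 24 were highest in hESC G1/S and 15 in hESC G1, so hESC S does not hold most of the maxima. This was noticed after the values were seen, and no phase comparison was called. The same count was not made over all regions, so no trait of the pathway can be read from it. SLC2A1 had 1520 in endoderm S and 2645 in hESC S, and HK1 371 and 1494. PFKP, the platelet-type phosphofructokinase, had 359, 349 and 757 in endoderm, in phase order, against 678, 337 and 2275 in hESC. ALDOC shares that hESC S maximum, whereas SLC2A3 has 213 there.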
